A study of Rattus norvegicus with 6 samples.

Results

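The p53 target genes examined in PCBP1-OE and control cells were Mdm2, Cdkn1a, Ccng1, Gadd45a, Sesn1, Aen, Bbc3, Tp53inp1 and Zmat3, a list of 9 genes chosen by name as established targets of the transcription factor p53. Of the 9, 8 had a row among the 20609 genes of the count table, and all 8 were among the 12624 genes tested. Bbc3, which encodes the cell death protein Puma, was not analysed here. RNA-seq counts per gene were available for 6 libraries of polyadenylated RNA from rat cells labelled PC12, 3 that received a control plasmid and 3 that received a plasmid for EGFP-tagged PCBP-1, a poly(C)-binding protein that acts on RNA and DNA. The comparison asked which transcripts differ when PCBP-1 is overexpressed. Plasmids were introduced by lipofection, and the control plasmid is not described further in the sources used here. The study's introduction calls the overexpression stable, and its methods describe the lipofection and a harvest time for RT-qPCR only. That time is not stated for the RNA-seq libraries. The replicates are called biological there, but no source used here says that they were separate cultures, so that p-values measure only the spread between these libraries. The transcript of PCBP-1 itself was not analysed here, and its overexpression was therefore not checked in the counts. The study reports more PCBP-1 transcript by RT-qPCR and more protein by western blotting in the overexpressing cells.

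The control libraries held 20268725, 21256970 and 22315623 counts and the PCBP1-OE libraries held 21367196, 19822383 and 19730209. PC12 is a line derived from a rat tumour of adrenal chromaffin cells, which make catecholamines and store them in chromogranin-rich granules. Of 9 chromaffin markers with a row, 6 had a mean under 1 CPM (counts scaled to library size as edgeR's CPM), among them Ddc, Dbh, Chgb and Phox2a. Chga, which encodes chromogranin A, had counts of 0, 0 and 2 in the control libraries and 0, 0 and 3 in the PCBP1-OE libraries. Scg2, the most abundant marker of that list, was at 152.2, 170.2 and 141.4 CPM in the control and 144.0, 129.2 and 133.6 CPM in the PCBP1-OE libraries and did not pass (log2 fold change -0.19, SE 0.06, adjusted p = 0.0787, edgeR quasi-likelihood test). It was called lower without a filter on low counts (0.0108) and without control replicate 3 (0.00645), within a range of 0.00645 to 0.401 over the alternatives. Of the 4 chromaffin markers tested, 2 lay above 0 and 2 below, at a median of 0.06, and 0 were called. Slc18a1, a vesicular monoamine transporter gene with 17 to 28 counts per library, was higher without overlap between the groups (log2 fold change 0.47, SE 0.28, adjusted p = 0.296), and Gata3 was at 0.17 (SE 0.26, adjusted p = 0.709). The summed list, most of it Scg2, was at 162.8, 181.4 and 151.8 CPM in the control and 154.2, 140.6 and 145.4 CPM in the PCBP1-OE libraries. Th, which encodes the rate-limiting enzyme of catecholamine synthesis, was detected in every library, with 141 to 185 counts (6.85 to 8.86 CPM). Scg2 and Th were thus present while Chga, Chgb, Dbh, Ddc and Phox2a were near 0, and the label PC12 is kept here as a name only. Among glial markers, Sox10 averaged 384 CPM and S100b ranged from 211.5 to 243.0 CPM. The 5 glial markers summed to 619.8, 664.2 and 651.5 CPM in the control libraries and to 586.0, 606.2 and 587.5 CPM in the PCBP1-OE libraries. The 2 groups did not overlap in that sum, although none of the 4 glial markers tested passed the threshold in edgeR's quasi-likelihood test or by the other tools run. At an unadjusted p under 0.05, 2 of the 4 were lower. The sums of fibroblast and leukocyte markers were also lower, without overlap between the groups. Among single genes tested, the groups did not overlap for 3866 of 12624 (30.6%). The 3 fibroblast markers with a row summed to 226.5, 228.7 and 223.6 CPM in the control and 209.1, 198.9 and 211.0 CPM in the PCBP1-OE libraries, nearly all of it Pdgfra, while Dcn was under 1 CPM. Col1a1, the other fibroblast marker tested, was at a mean of 3.16 CPM in control and 3.38 CPM in PCBP1-OE cells (log2 fold change 0.10, SE 0.17, adjusted p = 0.748), so that the fibroblast sum is that of a single gene. Pdgfra was at 223.0, 225.6 and 220.3 CPM against 205.7, 195.2 and 207.8 CPM and did not pass (log2 fold change -0.14, SE 0.04, adjusted p = 0.0644, edgeR quasi-likelihood test). DESeq2 called it lower (adjusted p = 0.0487), as did the test without control replicate 3 (0.0345), within a range of 0.0345 to 0.262 over the alternatives. The 5 leukocyte markers summed to 7.24, 8.10 and 7.27 CPM in the control and 6.49, 6.74 and 6.23 CPM in the PCBP1-OE libraries, with Cd68 the most abundant and Ptprc near 0. Of the 2 tested, Cd68 did not pass (log2 fold change -0.36, SE 0.17, adjusted p = 0.185, edgeR quasi-likelihood test). Nor did Cd3e, which overlapped between the groups (-0.07, SE 0.19, adjusted p = 0.849, same test). Endothelial markers summed to 0.227 to 0.545 CPM. The part of these cell type markers in the results was not tested. In bulk libraries, fewer cells of a type and less RNA per cell cannot be told apart.

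p53 is a transcription factor that accumulates when DNA is damaged or cells are otherwise stressed, and it binds response elements built from paired decamers. Its targets stop the cell cycle, repair DNA, alter metabolism or start apoptosis. A further target, Mdm2, encodes the ubiquitin ligase that marks p53 for degradation, which closes a feedback loop. Because p53 is controlled largely through the stability of its protein, the transcripts of its targets are widely used to follow its activity.

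The sequences upstream of the genes are shown because the list was drawn up from a shared regulator. RefSeq promoter windows of the rat assembly GRCr8, from 250 bases before to 50 bases after the annotated gene start, were found for 6 of the 9 genes, all except Bbc3, Tp53inp1 and Zmat3. Both strands were searched for the p53 decamer consensus without a mismatch, which reads the same on either strand. Such a decamer lay in 5 of the 6 windows, Mdm2 being the exception, and in 2671 of 33469 rat promoter windows (7.98%). A pair of adjacent decamers with the central C and G of each kept and at most 2 other letters off was found for Cdkn1a, Ccng1 and Aen, 3 of the 6, and in 112 of all windows (0.335%). The Gadd45a window also held the octamer ATTTGCAT, whose reverse complement ATGCAAAT was searched as well and which occurred in 595 of all windows (1.78%). In the stretches printed here, 5′ to 3′ on the strand of the gene, capitals mark the adjacent decamers, or for Gadd45a the octamer followed by a single decamer, and for Sesn1 a single decamer. The Cdkn1a stretch is chr20:7150701-7150780 on the plus strand, the Ccng1 stretch chr10:25685069-25685126 on the minus strand, and the Aen stretch chr1:142224473-142224552 on the plus strand. Those of Gadd45a and Sesn1 are chr4:97486808-97486934 on the minus strand and chr20:46948517-46948586 on the plus strand.
Cdkn1a: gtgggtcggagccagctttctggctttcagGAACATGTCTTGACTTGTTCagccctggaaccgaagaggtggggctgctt
Ccng1: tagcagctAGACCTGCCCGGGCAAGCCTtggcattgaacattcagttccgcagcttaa
Aen: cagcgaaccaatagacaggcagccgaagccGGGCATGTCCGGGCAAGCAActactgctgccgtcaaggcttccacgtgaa
Gadd45a: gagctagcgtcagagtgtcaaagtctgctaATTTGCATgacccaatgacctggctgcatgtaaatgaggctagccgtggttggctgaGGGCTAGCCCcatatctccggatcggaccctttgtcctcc
Sesn1: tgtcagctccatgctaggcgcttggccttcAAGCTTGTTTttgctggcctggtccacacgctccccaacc

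The pair in the Cdkn1a window began at position -201 from the gene start and had 1 letter off the consensus. In Ccng1 the pair began at -242, also with 1 letter off, and in Aen at -30 with 2 letters off. The single decamers of Gadd45a and Sesn1 began at -48 and -172. A match of letters is a description of the sequence, and a window without a match says nothing of elements elsewhere in the gene, such as the well-known intronic response elements of Mdm2 and Gadd45a.

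Of the 8 p53 targets tested, Mdm2 and Gadd45a were higher in PCBP1-OE cells at an FDR of 0.05 or less (edgeR quasi-likelihood test, Benjamini-Hochberg adjustment over all genes tested). These 2 of 8 (25%) compare with 562 of 12624 genes (4.45%) called higher in the whole table. None of the 8 was called lower by that test or by DESeq2, limma-voom, edgeR's likelihood-ratio test or its exact test, against 631 genes (5.0%) called lower and 1193 genes (9.45%) called in either direction. At an unadjusted p under 0.05, 7 of the 8 targets were higher and 0 lower, as against 1722 genes (13.6%) higher and 1866 (14.8%) lower of all those tested. That number was 6 with edgeR's likelihood-ratio or exact test and without PCBP1-OE replicate 2. Without control replicate 2 or PCBP1-OE replicate 1 it was 5, beside 9.76% and 10% of all genes higher in those fits. No target reached a 2-fold change, which 24 genes (0.190%) did at the same FDR. The CPM of the 2 groups did not overlap for 7 of the 8 targets (87.5%), and for 3866 of all genes (30.6%). The median log2 fold change of the 8 genes was 0.21, beside 0.0029 for all genes tested. Counts of calls depended on single libraries. Leaving out control replicate 1, 2 or 3 in turn turned the 1193 calls into 246, 48 or 2860. On the PCBP1-OE side, dropping replicate 1, 2 or 3 gave 169, 136 or 697 calls. With upper-quartile scaling in place of TMM, 655 genes were called higher and 427 lower (60.5% higher, beside 47.1% with TMM).

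**Figure D1:**
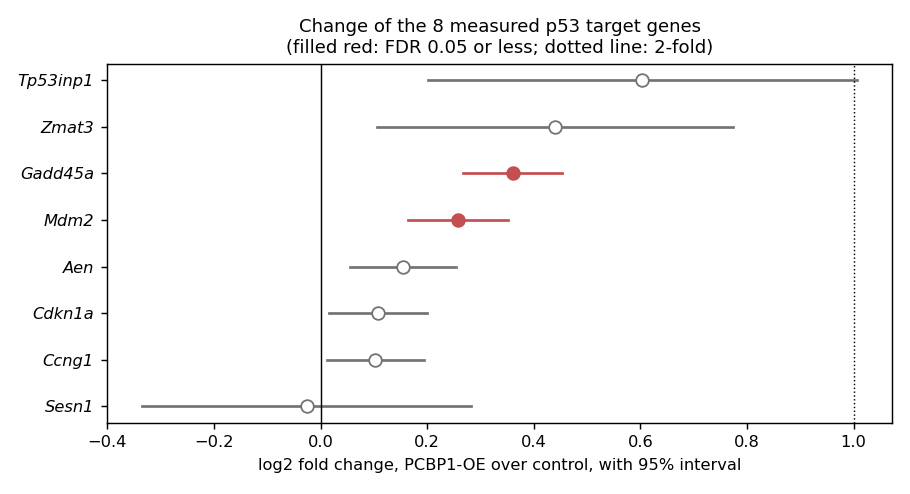
Log2 fold change of each measured p53 target gene in PCBP1-OE over control cells (3 libraries per group), with 95% intervals from the edgeR quasi-likelihood fit. Filled red points passed an FDR of 0.05, the solid line marks no change and the dotted line a 2-fold increase. Sesn1 lies at -0.03 and the other 7 genes lie above 0, with the widest intervals for Tp53inp1, Zmat3 and Sesn1, which had the fewest counts.

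Mdm2 (ENSRNOG00000006304, chromosome 7) encodes the ubiquitin ligase that limits p53. Its TMM-scaled level was 577.1, 579.8 and 617.0 CPM in control replicates 1 to 3 and 704.7, 709.7 and 707.2 CPM in PCBP1-OE replicates 1 to 3. Every PCBP1-OE library was above every control library, and the PCBP1-OE libraries lay closer together (707 ± 2.52, SD, n = 3) than the controls (591 ± 22.3, SD, n = 3). The log2 fold change was 0.26 (SE 0.04, 95% interval 0.17 to 0.35), an increase of 19.6%, with an adjusted p of 0.00839 in edgeR's quasi-likelihood test. Counts of Mdm2 were 11316 to 15529 reads per library. Without control replicate 2 the adjusted p was 0.058, and over 15 alternative settings it ranged from 7.39e-07 to 0.0987.

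The arrest genes of the list are Cdkn1a, Gadd45a and Ccng1. Gadd45a (ENSRNOG00000005615, chromosome 4) encodes a small stress protein that acts in cell cycle arrest, DNA repair and stress kinase signalling. It was at 269.4, 258.9 and 259.6 CPM in the control libraries and at 339.4, 326.0 and 346.2 CPM in the PCBP1-OE libraries. The groups were well apart, with a gap between them that exceeded the range within either. Its log2 fold change of 0.36 (SE 0.04, 95% interval 0.27 to 0.45), or 28.4%, had an adjusted p of 0.00131 in edgeR's quasi-likelihood test. Leaving out any 1 library kept this call, with adjusted p-values of 0.000163 to 0.0202 (range over 15 alternatives 3.1e-11 to 0.0584).

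Cdkn1a (ENSRNOG00000000521, chromosome 20) encodes p21, the inhibitor of cyclin-dependent kinases through which p53 stops the cell cycle. Control libraries held 552.3, 541.1 and 554.1 CPM, and PCBP1-OE libraries 570.3, 602.6 and 602.9 CPM. The groups did not overlap, but PCBP1-OE replicate 1 was nearer to the controls than to the other PCBP1-OE libraries. The log2 fold change of 0.11 (SE 0.04, 95% interval 0.02 to 0.20) did not pass (adjusted p = 0.116, edgeR quasi-likelihood test), nor did it in any of the 15 alternatives (0.0714 to 0.311). The upper end of the interval lies well below a 2-fold change. Counts of Cdkn1a were 10829 to 12568 per library, and whether depth limited this comparison was not tested. Ccng1 (ENSRNOG00000003256, chromosome 10) encodes cyclin G1, which takes part in the p53 and Mdm2 loop. It ranged from 1114 to 1161 CPM in the control libraries and from 1184 to 1239 CPM in the PCBP1-OE libraries. Its log2 fold change was 0.10 (SE 0.04, 95% interval 0.01 to 0.19) and did not pass either (adjusted p = 0.13, edgeR quasi-likelihood test, and 0.0746 to 0.335 over the alternatives). The ratio of Gadd45a to Cdkn1a counts within a library was 0.488, 0.478 and 0.468 in the control libraries and 0.595, 0.541 and 0.574 in the PCBP1-OE libraries, without overlap between the groups. The exact two-sided permutation test of this ratio gave p = 0.1, the smallest that 3 against 3 libraries allow, and 0.1 after Benjamini-Hochberg adjustment over 7 ratios computed.

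**Figure D2:**
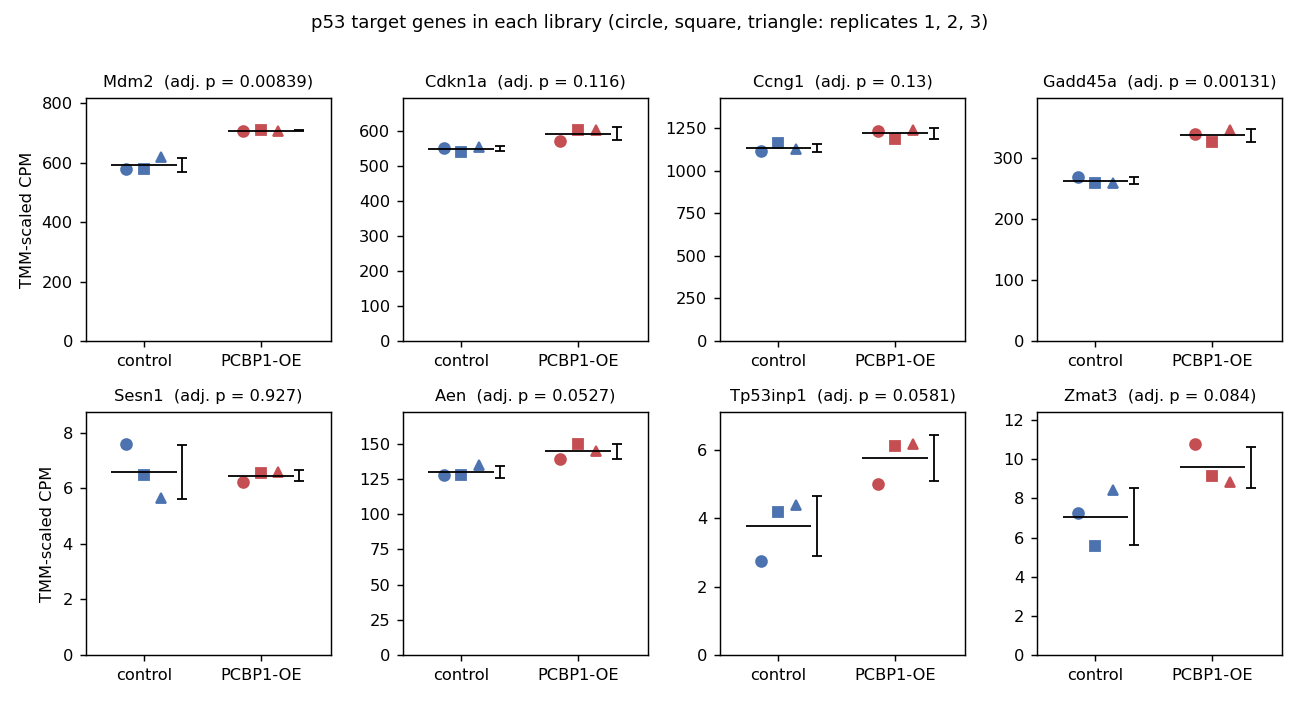
TMM-scaled CPM of the 8 measured p53 target genes in each library, control in blue and PCBP1-OE in red, with the replicates as circle, square and triangle. Horizontal lines are group means, vertical bars are SD (n = 3), each axis starts at 0, and the adjusted p of edgeR's quasi-likelihood test stands above each panel. The groups are apart in every panel except that of Sesn1, and the distance is small against the level for Cdkn1a and Ccng1.

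Aen (ENSRNOG00000018421, chromosome 1) encodes an exonuclease that digests DNA during apoptosis. The control libraries were at 127.7, 127.8 and 134.7 CPM and the PCBP1-OE libraries at 139.5, 150.1 and 144.7 CPM. With a log2 fold change of 0.15 (SE 0.05, 95% interval 0.05 to 0.25), Aen narrowly missed the threshold (adjusted p = 0.0527, edgeR quasi-likelihood test). It was called in 6 of 15 alternatives, among them that without control replicate 3 (adjusted p = 0.0151, range over the alternatives 0.0151 to 0.225). Tp53inp1 (ENSRNOG00000007964, chromosome 5) encodes a nuclear stress protein that promotes p53-dependent apoptosis and also has a role in autophagy. Counts were low, at 54, 87 and 98 in the control libraries and 110, 123 and 121 in the PCBP1-OE libraries, or 2.75, 4.17 and 4.37 CPM against 4.99, 6.10 and 6.18 CPM. The PCBP1-OE libraries were all above the controls, and control replicate 1 was the lowest of the 6. The log2 fold change of 0.60 had a wide 95% interval of 0.20 to 1.01 (SE 0.19) and an adjusted p of 0.0581 in edgeR's quasi-likelihood test. Of the 15 alternatives 5 called it, including that without control replicate 3 (adjusted p = 0.0171, range 0.0119 to 0.193).

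Zmat3 (ENSRNOG00000010119, chromosome 2) encodes a zinc finger protein that binds RNA and regulates splicing downstream of p53. It had 142, 116 and 189 counts in the control libraries and 238, 185 and 173 in the PCBP1-OE libraries. Scaled to library size these were 7.24, 5.56 and 8.43 CPM against 10.8, 9.17 and 8.83 CPM, so that control replicate 3 and PCBP1-OE replicate 3 nearly met. The log2 fold change of 0.44 (SE 0.15, 95% interval 0.11 to 0.77) did not pass (adjusted p = 0.084, edgeR quasi-likelihood test). Without control replicate 3 the adjusted p was 0.0131, within a range of 0.0131 to 0.295 over the alternatives. Sesn1 (ENSRNOG00000000302, chromosome 20) encodes a sestrin, a stress protein that restrains mTORC1 signalling. Its counts of 127 to 149 in the control and 129 to 137 in the PCBP1-OE libraries overlapped, at 5.66 to 7.60 and 6.22 to 6.59 CPM. The log2 fold change was -0.03 (SE 0.14, adjusted p = 0.927, edgeR quasi-likelihood test). Its 95% interval of -0.33 to 0.28 includes changes as large as that of Mdm2.

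The libraries were also compared over the 8 genes at once. In control replicates 1, 2 and 3, 1, 0 and 1 of the 8 genes were above their own mean over the 6 libraries, and in PCBP1-OE replicates 1, 2 and 3 the numbers were 7, 8 and 8. Their median deviation from the gene mean, in log2(CPM + 1), was -0.123, -0.112 and -0.063 in the control and 0.079, 0.130 and 0.0893 in the PCBP1-OE libraries. Control replicate 3 was thus the control library nearest to the PCBP1-OE group for these genes.

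**Figure D3:**
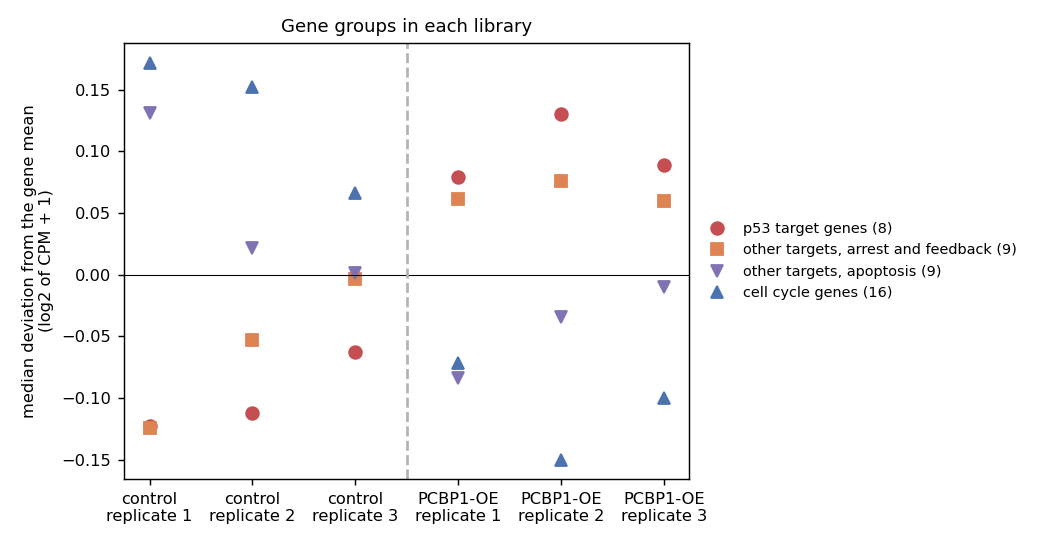
Median deviation of 4 gene groups from each gene's mean over the 6 libraries, in log2(CPM + 1), with 1 point per group and library and the number of genes in the legend. The p53 target genes run from -0.123 to -0.063 in the control and from 0.079 to 0.130 in the PCBP1-OE libraries, and the cell cycle genes show the opposite order.

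Mdm4, the relative of Mdm2 that also holds p53 in check, had a log2 fold change of 0.07 (SE 0.08, adjusted p = 0.6, edgeR quasi-likelihood test). The ratio of Mdm2 to Mdm4 counts was 27.6, 30.9 and 31.1 against 33.1, 34.9 and 33.7, without overlap between the groups (exact permutation p = 0.1, the smallest possible).

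Among 15 tested regulators of p53, Mdm4 included, 2 were called higher and 0 lower, with a median log2 fold change of 0.07. No gene of this list was lower at an unadjusted p under 0.05 or by the other tools run. Usp7, the deubiquitinase that acts on both Mdm2 and p53, rose by 0.23 (log2, SE 0.06, adjusted p = 0.0372, edgeR quasi-likelihood test). Ep300, an acetyltransferase that modifies p53, rose by 1.16 (log2, SE 0.28, adjusted p = 0.0281), although its level was low and uneven. It was at 4.33, 2.49 and 1.87 CPM in the control libraries and 4.22, 7.58 and 7.50 CPM in the PCBP1-OE libraries, so that control replicate 1 exceeded PCBP1-OE replicate 1. Among the fits with 1 library left out, Usp7 was called only without control replicate 3, and its adjusted p was 0.0541 to 0.174 in the other 5. Ep300 was not called without control replicate 2 or without PCBP1-OE replicate 2 or 3.

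Other known p53 targets were examined in 3 groups by role. In total 30 of 37 listed genes were tested, of which 4 were called higher, 2 lower and 24 not called, at a median log2 fold change of 0.04. In the group for arrest and feedback, 3 of 9 tested genes rose and 0 fell, with a median of 0.14, and no gene was lower at an unadjusted p under 0.05 or by the other tools run. Btg2, an antiproliferative factor, was at 29.5, 31.4 and 34.5 CPM in the control and 39.6, 45.4 and 42.4 CPM in the PCBP1-OE libraries. It rose by 0.42 (log2, SE 0.07, adjusted p = 0.00978, edgeR quasi-likelihood test). Plk2, a polo-like kinase induced by stress, rose by 0.31 (SE 0.06, adjusted p = 0.00965) and Ptp4a1, a protein phosphatase, by 0.30 (SE 0.05, adjusted p = 0.00835). None of the 3 passed without control replicate 2, where their adjusted p-values were 0.0666, 0.0701 and 0.0648, and Btg2 did not pass without PCBP1-OE replicate 2 (0.0551).

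In the apoptosis group, of 9 tested genes, 0 rose and 2 fell, and the median was -0.06. Siva1, a proapoptotic adaptor, was at 67.6, 68.6 and 59.3 CPM in the control and 50.1, 58.3 and 54.7 CPM in the PCBP1-OE libraries, and fell by 0.26 (log2, SE 0.07, adjusted p = 0.0354, edgeR quasi-likelihood test). Tp53i11 fell by 0.18 (SE 0.05, adjusted p = 0.0455), a call that was lost with upper-quartile scaling, DESeq2 and limma-voom. Leaving out any library except control replicate 3 left 0 calls in this group, and without that library there were 3. At an unadjusted p under 0.05, 4 genes of the group were lower, Bax and Pidd1 besides Siva1 and Tp53i11, and 1 was higher, Apaf1, while DESeq2, limma-voom and edgeR's other tests called 0 higher. Bax, which encodes a protein that permeabilizes mitochondria in apoptosis, was at 110.7, 110.0 and 101.1 CPM in the control and 88.2, 97.9 and 99.9 CPM in the PCBP1-OE libraries (log2 fold change -0.17, SE 0.06, adjusted p = 0.0705). It was called in 2 of 15 alternatives, without a filter on low counts (0.0367) and without control replicate 3 (0.0106). Pidd1, at -0.37 (SE 0.13, adjusted p = 0.0889), was called in none of the 15. Apaf1, which encodes the scaffold of the apoptosome, was at 14.5, 13.2 and 13.7 CPM in the control and 19.2, 14.0 and 16.7 CPM in the PCBP1-OE libraries (log2 fold change 0.28, SE 0.12, adjusted p = 0.135) and was called in none of the 15 either. Pmaip1, Tnfrsf10b and Perp had too few counts to be tested, as did Rprm of the arrest group. In the group for DNA repair and metabolism, 1 of 12 tested genes rose and 0 fell, at a median of 0.04. At an unadjusted p under 0.05, 1 gene was lower, Rps27l (log2 fold change -0.13, SE 0.05, adjusted p = 0.139), which the other tools run did not call and which passed without control replicate 3 (0.0236). The gene that rose was Sesn2, the relative of Sesn1, at 120.5, 125.1 and 139.6 CPM in the control and 147.0, 157.9 and 143.7 CPM in the PCBP1-OE libraries (log2 fold change 0.22, SE 0.06, adjusted p = 0.0372). The call was present without control replicate 3 and absent on leaving out any other library (adjusted p 0.0584 to 0.184).

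**Figure D4:**
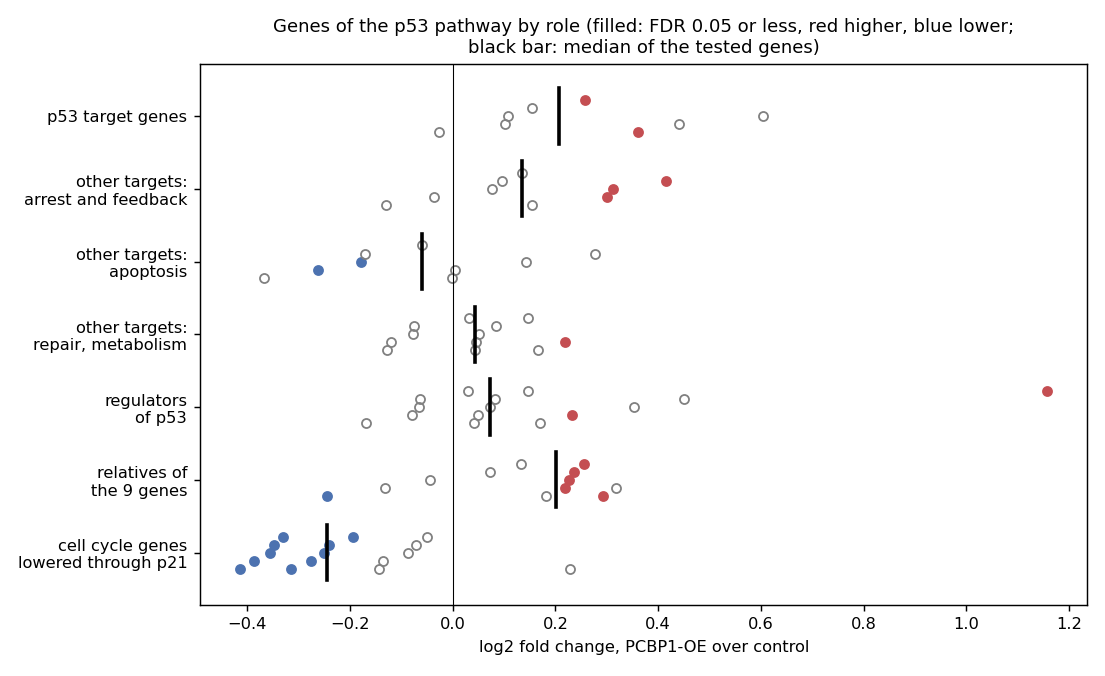
Log2 fold change in PCBP1-OE over control cells of each tested gene, by group, with filled points for an FDR of 0.05 or less (red higher, blue lower) and black bars for group medians. The medians of the p53 target genes (0.21) and of the cell cycle genes (-0.25) lie on opposite sides of 0, and the single point beyond 1 is Ep300.

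Relatives of the 9 genes within their own families were counted next. Of 12 tested, 5 were called higher and 1 lower, and the median log2 fold change was 0.20. Both other members of the Gadd45 family were higher along with Gadd45a. Gadd45b was at 237.2, 221.7 and 230.7 CPM in the control and 265.8, 279.3 and 278.1 CPM in the PCBP1-OE libraries (log2 fold change 0.26, SE 0.04, adjusted p = 0.00927, edgeR quasi-likelihood test). Gadd45g was at 67.5, 66.3 and 65.8 CPM against 76.6, 79.5 and 88.3 CPM (0.29, SE 0.06, adjusted p = 0.012). The groups did not overlap for either gene, and the direction of all 3 family members was the same under RLE and upper-quartile scaling. Cdkn1b, which encodes the kinase inhibitor p27 and is a relative of Cdkn1a, rose by 0.23 (SE 0.06, adjusted p = 0.0289). Isg20, an exonuclease gene related to Aen, rose by 0.24 (SE 0.05, adjusted p = 0.0172), and Sesn2 was the fifth. Tp53inp2, the relative of Tp53inp1 with a role in autophagy, fell by 0.25 (SE 0.06, adjusted p = 0.0223) and was thus on the other side of 0 from Tp53inp1. Calls among these relatives numbered 3, 0 or 6 when control replicate 1, 2 or 3 was left out, and 2, 2 or 3 when the PCBP1-OE replicate of that number was.

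Through p21, p53 lowers many genes needed for mitosis and DNA replication, and 16 such genes were tested. Of these, 10 fell and 0 rose, and 15 of 16 had a log2 fold change below 0, with a median of -0.25. Of all 12624 genes tested, 631 (5.0%) were called lower. Whether p53 or p21 had a part in these falls was not tested, and Cdkn1a itself did not pass. Cdk1, the kinase that drives entry into mitosis, was at 179.8, 172.3 and 157.6 CPM in the control and 122.9, 125.2 and 134.6 CPM in the PCBP1-OE libraries. It fell by 0.41 (log2, SE 0.06, adjusted p = 0.00263, edgeR quasi-likelihood test). Plk1, a mitotic kinase, was at 113.8, 111.1 and 111.8 CPM against 87.3, 86.2 and 84.1 CPM and fell by 0.39 (SE 0.04, adjusted p = 0.000779). It was called in all 15 alternatives. Birc5, which encodes survivin, fell by 0.35 (SE 0.08, adjusted p = 0.0221). Rrm2, a subunit of ribonucleotide reductase, was the exception in direction (0.23, SE 0.09, adjusted p = 0.131) and the only gene of the list higher at an unadjusted p under 0.05. DESeq2, limma-voom and edgeR's other tests also called 0 genes of this list higher. Rrm2 was called higher without a filter on low counts (adjusted p = 0.00197) and without control replicate 3 (0.00185), within a range of 0.00185 to 0.404 over the alternatives. With control replicate 1, 2 or 3 left out, 4, 2 or 10 genes were called lower, and with the PCBP1-OE replicate of that number left out, 5, 3 or 6 were.

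Of the genes often used as references, Actb did not pass (log2 fold change -0.05, SE 0.05, adjusted p = 0.523, edgeR quasi-likelihood test). Gapdh, at 3713, 3750 and 3682 CPM in the control and 3271, 3317 and 3417 CPM in the PCBP1-OE libraries, fell by 0.16 (SE 0.04, adjusted p = 0.0356). That call was lost in 5 of the 15 alternatives, among them those without control replicate 2 (0.0981), without PCBP1-OE replicates 1 (0.116) and 2 (0.147) and, by a narrow margin, with upper-quartile scaling. The adjusted p ranged from 0.000756 to 0.201 over the 15. Set against Actb, Mdm2 was at ratios of 0.291, 0.291 and 0.289 in the control and 0.354, 0.353 and 0.372 in the PCBP1-OE libraries.

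Genes outside the list whose level was most like the mean profile of the 8 targets over the 6 libraries were Brwd1, Aff4, Trib3, Atf5 and Cyr61. Their Pearson r, given as a description, was 0.998, 0.997, 0.996, 0.995 and 0.995. The libraries form 2 groups, and any gene that differs evenly between them has a high r, as had 446 genes (3.54%) with r above 0.9. Brwd1, the most alike, was at 13.1, 12.7 and 13.1 CPM in the control and 16.5, 17.5 and 17.6 CPM in the PCBP1-OE libraries. Trib3, a pseudokinase gene induced by stress, was at 55.0, 54.5 and 55.1 CPM against 67.6, 71.6 and 73.0 CPM.

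**Figure D5:**
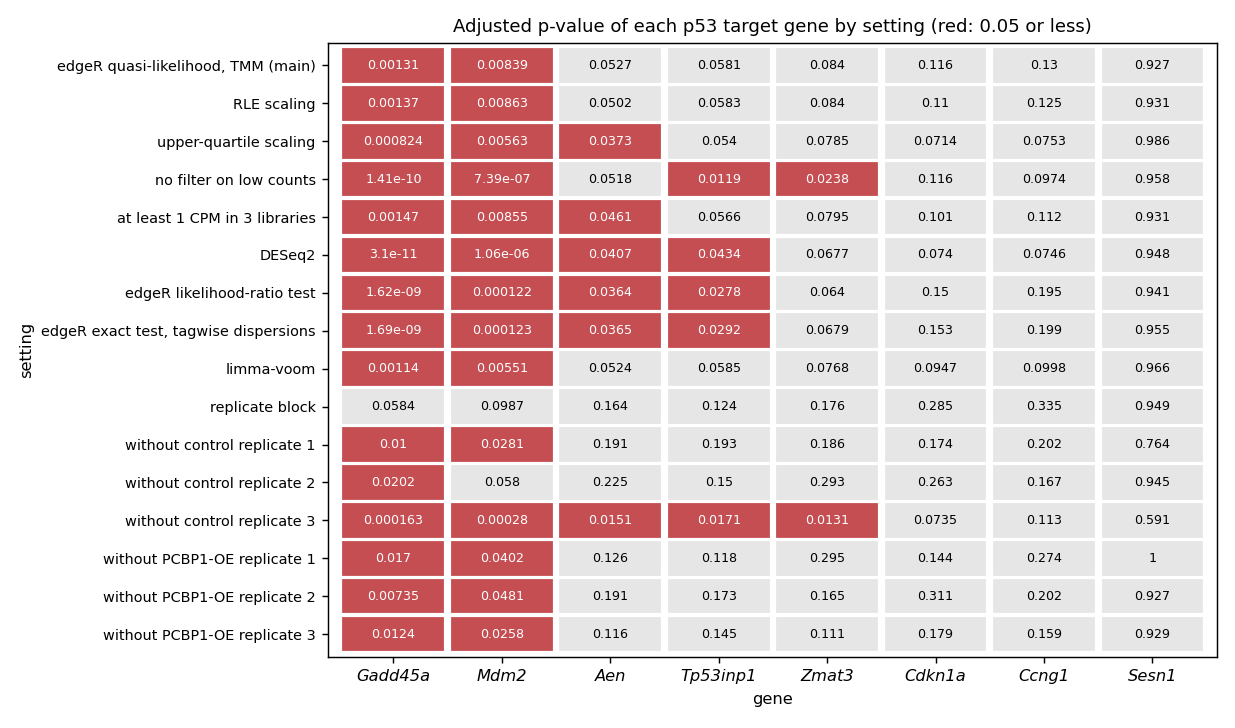
Adjusted p of each measured p53 target gene under the main edgeR quasi-likelihood test and 15 alternative settings, in red where it was 0.05 or less. Gadd45a passed in 14 and Mdm2 in 13 of the 15 alternatives, Aen in 6, Tp53inp1 in 5 and Zmat3 in 2, and Cdkn1a, Ccng1 and Sesn1 in 0.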

How the data were processed

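RNA-seq libraries of 3 control and 3 PCBP1-OE samples were grouped by their own labels. Raw read counts for each gene were deposited by the authors. Their methods describe trimming (FASTX-Toolkit), TopHat2 alignment to Rnor_6.0 and counting of uniquely mapped reads. The submitters' processing notes list bcl2fastq, TopHat2, edgeR and, as build, GRCh38, while gene identifiers are rat Ensembl identifiers. The labels and the methods name different stranded library kits. Which tool, strand setting and annotation were used for counting is not given in the sources used here. Overlapping antisense genes may therefore share reads.

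Groups were compared by the quasi-likelihood test of edgeR 4.0.16 in R 4.3.3. Library sizes were TMM-scaled and filterByExpr (count at least 10, total at least 15) removed low genes, with Benjamini-Hochberg adjustment over 12624 genes and a threshold of 0.05. SE values derive from the F statistic. CPM are TMM-scaled, and logs use CPM + 1. Other settings tried were upper-quartile and RLE scaling, no filter, at least 1 CPM in 3 libraries, DESeq2 1.42.0, edgeR's likelihood-ratio and exact tests, limma-voom (limma 3.58.1), a block for the replicate number, and leaving out every library in turn. Promoters were RefSeq windows (GRCr8), scanned in Python 3.11.15, and gene symbols are those of the deposited table.

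Named genes are the listed targets, Mdm4, up to 3 called genes with the largest change in each direction per list, all called relatives, Gapdh, Actb, chromaffin markers, and the 5 genes most like the mean z-scored profile of the targets. Rrm2, Rps27l, Bax, Pidd1, Apaf1, the glial and other cell markers and genes named for a missing test were added after their values were seen. The targets and lists were chosen with earlier results of these data known. Replicates differed by more than sampling noise (chi-square per gene 5.49 to 16.0). A few listed items are not reported here.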

Additional observations from a re-analysis of the deposited data

How the results depend on the processing

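No tested gene named here changed direction where it passed the threshold, under any of the 15 alternatives. The number of genes called, 1193 in the main test, was 2090 without a filter on low counts and 48 to 2860 on leaving out 1 library. For the p53 targets, 2 calls became 4 without the filter, 4 with DESeq2, 4 with edgeR's likelihood-ratio test and 4 with its exact test. Calls over all genes rose as well, to 1418 with DESeq2, 1624 with the likelihood-ratio test and 1594 with the exact test. Leaving out 1 library gave 1 call (without control replicate 2) to 5 calls (without control replicate 3) among the targets, and 2 to 28 calls, beside 23, among the other listed genes of the p53 pathway. Each of these fits had 5 libraries, so the counts depended on which library was left out, and the cause was not tested. With the replicate number as a block, 16 genes were called in all, 0 of the targets and 1 of the other listed genes. The edgeR quasi-likelihood test with the block had 5 of the 8 targets higher and 0 lower at an unadjusted p under 0.05. Of all genes tested, 1363 (10.8%) were higher and 1367 (10.8%) lower at that cut in the same fit. Deviations of libraries with the same number correlated at -0.104, -0.0813 and -0.107, and no library correlated best with its own number, so that the numbers give no sign of pairing. Tp53inp1, Zmat3 and Sesn1, with 54 to 238 counts per library, had the fewest counts and the largest SEs of the 8 targets. Whether depth or the spread between libraries limited these genes was not tested.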

Other observations

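Of all tested genes, 27 matched by symbol to a RefSeq window with adjacent p53 decamers, among them Cdkn1a, Ccng1 and Aen. Leaving those 3 aside, 1 of 24 such genes was called higher (4.17%) and 0 lower by edgeR's quasi-likelihood test, beside 4.60% higher and 5.39% lower among the 8866 tested genes with any window. Their median log2 fold change was 0.06, with 14 above 0 and 10 below. The called gene, named after its value was seen, was Rb1, which encodes the retinoblastoma protein, at a mean of 11.8 CPM in control and 18.1 CPM in PCBP1-OE cells (log2 fold change 0.62, SE 0.15, adjusted p = 0.0293). That call was lost without control replicate 1 or 2 and without PCBP1-OE replicate 1 or 2 (adjusted p 0.117 to 0.156). Among 646 tested genes with a window that held a single decamer or more, the targets left out, 23 were called higher (3.56%) and 34 lower (5.26%), at a median of -0.0042. This search was chosen after the results for the targets were seen.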
